A study of Homo sapiens with 6 samples.

Results

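The genes described here were 10 components and targets of bone morphogenetic protein (BMP) signaling: the ligand BMP4, the receptors BMPR1A and BMPR2, the signal transducers SMAD1 and SMAD5, the inhibitory SMAD6, and the target genes ID1, ID2, ID3 and ID4. They were found by gene symbol among the 21462 genes of the deposited count table, and all 10 were present. The list was drawn up with results of these libraries known, because ID1 and ID3 were lower in Dsg2KO cells while TGF-β target genes were higher. The differences between the conditions for the 10 genes are therefore given as a description, without p-values.

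RNA was sequenced from control A431 cells (A431CT, labeled wild type) and from A431 cells in which DSG2, the gene of the desmosomal cadherin Desmoglein-2, was edited with CRISPR/Cas9 (Dsg2KO), with 3 replicates per condition. A431 cells are keratinocytes of a human epidermoid carcinoma, kept as an established line. Both lines were untreated and grown in serum-containing medium, and both were a gift from another laboratory. Whether the Dsg2KO cells were 1 clone is not given in the sources used here. The study describes the 3 samples per condition as biological replicates.

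BMPs are secreted ligands that bind type I and type II receptors, and the type II receptor then phosphorylates the type I receptor. The type I receptor activates SMAD1, SMAD5 and SMAD9, which enter the nucleus with SMAD4 and bind the regulatory regions of target genes. TGF-β uses related receptors but signals mainly through SMAD2 and SMAD3. The ID genes are among the most direct BMP targets in many cell types. Their proteins have a helix-loop-helix domain but no DNA-binding region, and they hold E proteins and other partners away from DNA. In epidermis, ID proteins are known for keeping keratinocytes proliferative and undifferentiated. SMAD6 and SMAD7 are induced by the same pathways that they inhibit.

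The libraries held between 12845719 and 16255692 counts. Levels are given as CPM, the counts of a gene relative to library size scaled with edgeR's TMM factors. The table lists the targeted gene DSG2 at between 319 and 330 CPM in A431CT cells and between 49.7 and 55.2 CPM in Dsg2KO cells, which is the direction of the labels. Among markers of keratinocytes and epithelium, EGFR, CDH1, KRT5, KRT8, KRT18 and TP63 were well expressed in all libraries, while KRT14 had at most 3 counts per library. The summed level of this list of 10 markers was between 11930 and 12550 CPM in A431CT cells and between 12910 and 13250 CPM in Dsg2KO cells, most of it EGFR (means of 8451 and 9134 CPM). KRT6A was lower in Dsg2KO cells past both thresholds used here, 0.05 for the adjusted p-value and 0.5 for the log2 fold change (-1.03, edgeR), and SFN had a log2 fold change of -0.46. Fibroblast markers summed to at most 0.516 CPM in any library, and 6 of the 7 were at or under 3 counts in every library. A list of 5 endothelial markers summed to between 8.53 and 11.5 CPM in A431CT cells and between 15.2 and 15.7 CPM in Dsg2KO cells, of which KDR and TEK were at or under 3 counts. The sum was carried by CDH5 and PECAM1, which passed both thresholds as higher (log2 fold changes of 0.76 and 0.54, edgeR). The 6 leukocyte markers summed to between 238.5 and 242.9 CPM against 149.9 to 163.9 CPM, nearly all of it CD68, and CD3E was at 0. Melanocyte markers summed to at most 4.72 CPM. The part of these markers in the results was not tested.

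The start regions of ID1, ID3 and the inhibitory SMAD6 are given, because these genes are direct targets of SMAD proteins in other systems. The sequences are the 250 bases before the RefSeq start on GRCh38, written 5′ to 3′ on the strand of the gene. Capitals mark GGCGCC, a sequence bound by BMP-activated SMADs, GTCTAGAC, the palindromic SMAD box, and TATAA, the core of the TATA box. All were searched on both strands.
ID1, chr20:31605039-31605288, plus strand: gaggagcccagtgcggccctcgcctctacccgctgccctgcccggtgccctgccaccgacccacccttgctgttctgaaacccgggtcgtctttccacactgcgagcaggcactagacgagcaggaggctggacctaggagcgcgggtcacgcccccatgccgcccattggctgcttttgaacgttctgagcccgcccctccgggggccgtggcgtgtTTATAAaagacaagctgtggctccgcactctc
ID3, chr1:23559502-23559751, minus strand: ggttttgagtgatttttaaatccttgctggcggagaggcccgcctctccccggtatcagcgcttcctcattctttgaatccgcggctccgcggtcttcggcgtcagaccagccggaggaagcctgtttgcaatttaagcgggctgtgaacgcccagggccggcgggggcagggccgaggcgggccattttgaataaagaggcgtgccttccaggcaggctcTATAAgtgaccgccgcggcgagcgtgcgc
SMAD6, chr15:66701986-66702235, plus strand: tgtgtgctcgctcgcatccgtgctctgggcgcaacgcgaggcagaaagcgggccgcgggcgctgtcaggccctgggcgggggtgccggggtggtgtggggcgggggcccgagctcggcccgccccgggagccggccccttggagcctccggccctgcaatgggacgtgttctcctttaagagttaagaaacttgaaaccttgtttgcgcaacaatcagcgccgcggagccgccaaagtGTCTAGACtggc

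TATAA on the strand of the gene began 31 bases before the start of ID1 and 29 bases before the starts of ID3 and ID4, and it was not found in the ID2 promoter. On either strand it was present in 5 of the 10 promoters of the listed genes and in 20.4% of the 35116 RefSeq promoters of 300 bases (250 before and 50 after the start). GTCTAGAC began 12 bases before the start of SMAD6 and was in 1 of the 10 promoters, against 0.202% of all promoters. Further upstream, GGCGCC was found 965 bases before the ID1 start. That stretch is shown with a stretch 1260 bases before the start of SMAD7, which also held the SMAD box.
ID1, chr20:31604298-31604355, plus strand: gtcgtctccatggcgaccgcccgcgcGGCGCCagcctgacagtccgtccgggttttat
SMAD7, chr18:48952192-48952251, minus strand: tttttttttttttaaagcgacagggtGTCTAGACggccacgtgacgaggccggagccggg

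Within the 2000 bases before the start, GGCGCC was present for 7 of the 10 listed genes, and for 51.8% of the 10035 tested genes with a RefSeq promoter entry. It was not found in this window for ID3, SMAD1 or SMAD5. GTCTAGAC was present in this window for SMAD6 alone among the 10, and for 1.20% of the tested genes. These matches describe the letters of the reference sequence, and binding was not measured.

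Of the 10 genes, 8 passed edgeR's filter on low counts and entered the fit over 12857 genes. Both thresholds were met where edgeR's quasi-likelihood test gave a Benjamini-Hochberg adjusted p-value under 0.05 and the log2 fold change reached 0.5 in either direction. By this rule 2 of the 8 were lower in Dsg2KO cells, ID1 and ID3, and 0 were higher. Over all tested genes the rule called 6.03%, of which 2.99% were higher and 3.03% lower. By the adjusted p-value alone 5 of the 8 were called, with BMPR1A, BMPR2 and SMAD6 higher and ID1 and ID3 lower, against 29.6% of all tested genes, 14.3% as higher and 15.3% as lower. Of these 5, SMAD6 was no longer called with DESeq2, without A431CT replicate 2 or without Dsg2KO replicate 1, and BMPR2 was not without A431CT replicate 1 or without Dsg2KO replicate 3. The same 5 genes had libraries that did not overlap between the conditions, which held for 42.6% of all tested genes, 21.2% as higher and 21.4% as lower. The median log2 fold change of the 8 genes was -0.05, and that of all tested genes was -0.0048. Since the list was chosen from this comparison, nothing is read from these shares.

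**Figure D1:**
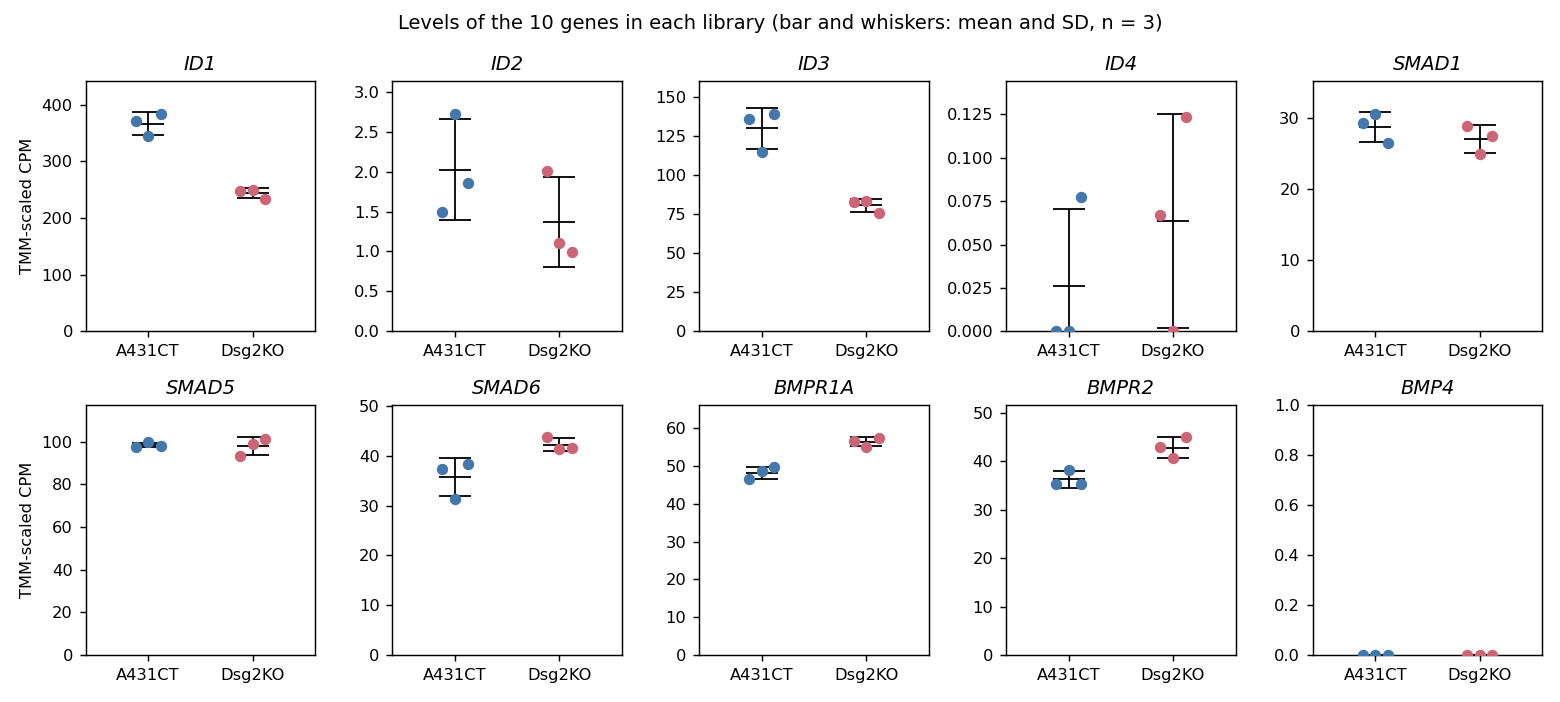
TMM-scaled CPM (vertical axes, each from 0) of the 10 genes in the 3 A431CT libraries (blue) and the 3 Dsg2KO libraries (red), with the mean and SD. ID1 and ID3 are lower in every Dsg2KO library than in any A431CT library, BMPR1A, BMPR2 and SMAD6 are higher in every one, and SMAD1, SMAD5 and ID2 overlap. BMP4 is at 0 in all libraries.

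Among the ligands, BMP4, which lies on chromosome 14 (53949736 to 53958761), had 0 counts in all 6 libraries. At these depths a count of 0 allows up to 3 counts, or between 0.183 and 0.236 CPM per library, which covers counting error only. CCN2, a gene that many adherent cells express, was also listed at 0 in all libraries, and whether the counting contributed to such zeros was not tested. The wider list of BMP ligands held 14 genes. Only BMP8A and BMP8B passed the filter on low counts, and 9 of the 14 were at or under 3 counts in every library.

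BMP8A was at 5.51, 6.41 and 9.07 CPM in A431CT cells and at 3.69, 4.22 and 5.44 CPM in Dsg2KO cells. BMP8B was at 11.4, 10.8 and 11.4 CPM in A431CT cells and at 9.06, 8.44 and 5.25 CPM in Dsg2KO cells. Both were lower in 3 of 3 Dsg2KO libraries, but for BMP8A the highest Dsg2KO library lay close to the lowest A431CT library. BMP8A fell by 0.65 on the log2 scale (standard error, SE, 0.22, adjusted p = 0.0341, edgeR) and BMP8B with a log2 fold change of -0.57 (SE 0.17, adjusted p = 0.0219, edgeR). These genes are near-identical copies of each other, so that reads may have been divided between them and both values are uncertain. The calls also rested on single libraries. BMP8A lost its call without A431CT replicate 3, without Dsg2KO replicate 1 or without Dsg2KO replicate 2 (log2 fold changes of -0.42, -0.53 and -0.61). BMP8B lost it without A431CT replicate 1, without A431CT replicate 3 or without Dsg2KO replicate 3 (-0.55, -0.55 and -0.36). With DESeq2 the adjusted p-value was 0.0611 for BMP8A and 0.0365 for BMP8B. Both lie on chromosome 1 among genes that were lower as a group, with a median log2 fold change of -0.28 over the 50 nearest tested genes. With that median removed, BMP8A was at -0.37 and BMP8B at -0.29, both short of the fold change minimum.

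The receptors of the list were slightly higher in Dsg2KO cells. BMPR1A, a type I receptor on chromosome 10 (86756596 to 86932825), was at 46.6, 48.6 and 49.7 CPM in A431CT cells and at 56.8, 55.2 and 57.4 CPM in Dsg2KO cells. The conditions did not overlap, and the log2 fold change was 0.23 (SE 0.06), or 117% of the A431CT level. BMPR2, the type II receptor that is selective for BMPs, lies on chromosome 2 (202376327 to 202567751). It was at 35.2, 38.3 and 35.3 CPM in A431CT cells and at 42.9, 40.7 and 44.9 CPM in Dsg2KO cells. Every Dsg2KO library again lay above every A431CT library, with a log2 fold change of 0.24 (SE 0.07).

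Receptors outside the list of 10 were ACVR1, a further type I receptor for BMPs, and ACVR2A and ACVR2B, type II receptors shared with activins. ACVR1 had a mean of 14.0 ± 0.528 CPM (SD, n = 3) in A431CT cells and 16.9 ± 0.219 CPM in Dsg2KO cells, with a log2 fold change of 0.27 (SE 0.09, adjusted p = 0.0384, edgeR), under the fold change minimum. ACVR2A and ACVR2B had log2 fold changes of 0.31 and 0.19 (SEs 0.15 and 0.12, adjusted p = 0.138 and 0.247, edgeR). Each of these receptors was higher in all Dsg2KO libraries than in any A431CT library, as were 21.2% of all tested genes. For the ACVR2 genes the differences did not pass the test. BMPR1B was under the filter, with a mean of 0.737 ± 0.314 CPM (SD, n = 3) in A431CT cells and 0.525 ± 0.129 CPM in Dsg2KO cells. The makeup of the receptor pool hardly moved. Per length of exon, BMPR2 made up 63.5% ± 0.899 (SD, n = 3) of the type II receptors BMPR2, ACVR2A and ACVR2B in A431CT cells and 63.1% ± 1.51 in Dsg2KO cells. BMPR1A made up 77.1% ± 1.12 of BMPR1A and ACVR1 in A431CT cells and 76.6% ± 0.530 in Dsg2KO cells.

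Of the 12 receptors and co-receptors, 8 were tested and, beside 6.03% of all tested genes, 1 passed both thresholds. This was RGMB, a membrane-anchored BMP co-receptor also known as DRAGON, which was at 7.0, 8.41 and 9.46 CPM in A431CT cells and at 5.43, 5.38 and 6.06 CPM in Dsg2KO cells. The conditions did not overlap, and RGMB fell with a log2 fold change of -0.56 (SE 0.16, adjusted p = 0.0184, edgeR). It lost the call without A431CT replicate 3 (log2 fold change -0.45), without Dsg2KO replicate 1 (-0.53) or without Dsg2KO replicate 2 (-0.52), with adjusted p-values from edgeR between 0.0579 and 0.0731, and with DESeq2 (adjusted p = 0.0507). ENG and TGFBR3, co-receptors with log2 fold changes of -0.07 and 0.02, did not pass.

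The genes of the SMAD proteins that carry the BMP signal differed by less than the spread between replicates. SMAD1, on chromosome 4 (145481194 to 145559176), was at 29.3, 30.7 and 26.5 CPM in A431CT cells and at 28.9, 24.96 and 27.5 CPM in Dsg2KO cells, with a log2 fold change of -0.09 (SE 0.08). SMAD5, on chromosome 5 (136132845 to 136188747), was at 97.7, 99.7 and 98.1 CPM against 93.4, 99.1 and 101 CPM, with a log2 fold change of -0.0071 (SE 0.05). The libraries of the conditions overlapped for both genes. The sign for SMAD5 changed under some settings, with log2 fold changes between -0.06 and 0.03. SMAD5 was the more abundant of the pair, at 72.8% ± 1.35 (SD, n = 3) of their summed level per length of exon in A431CT cells and 73.9% ± 2.03 in Dsg2KO cells. SMAD9, the further BMP-activated SMAD, was under the filter in both conditions. SMAD4, the shared partner, had a log2 fold change of -0.0032 (SE 0.05, adjusted p = 0.972, edgeR).

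The inhibitory SMADs were higher in Dsg2KO cells. SMAD6, which acts mainly against BMP receptors and lies on chromosome 15 (66702236 to 66782849), was at 37.4, 31.4 and 38.5 CPM in A431CT cells and at 43.7, 41.5 and 41.7 CPM in Dsg2KO cells. No Dsg2KO library was as low as any A431CT library, and the log2 fold change was 0.24 (SE 0.08). It was 0.16 without A431CT replicate 2, the lowest library, and the difference then no longer passed the adjusted p-value. SMAD7, which acts against both TGF-β and BMP receptors and was not among the 10, was at 3.38, 2.80 and 3.72 CPM in A431CT cells and at 5.50, 7.71 and 6.80 CPM in Dsg2KO cells. SMAD7 was at 202% of the A431CT level, with a log2 fold change of 1.02 (SE 0.20), and was higher in 3 of 3 libraries. SMAD7 is also a TGF-β target, and the choice of the 10 genes refers to a rise of such targets. Its difference is therefore given as a description, without a p-value. Without 1 library its log2 fold change stayed between 0.90 and 1.14. SMAD6 was counted at 0.0973 ± 0.00546 times ID1 (SD, n = 3) in A431CT libraries and at 0.174 ± 0.00666 times ID1 in Dsg2KO libraries. This ratio within each library does not depend on the scaling between libraries. However, ID1 was listed because it was lower, with a log2 fold change of -0.59 against 0.24 for SMAD6. The rise of the ratio is therefore no separate evidence on SMAD6.

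**Figure D2:**
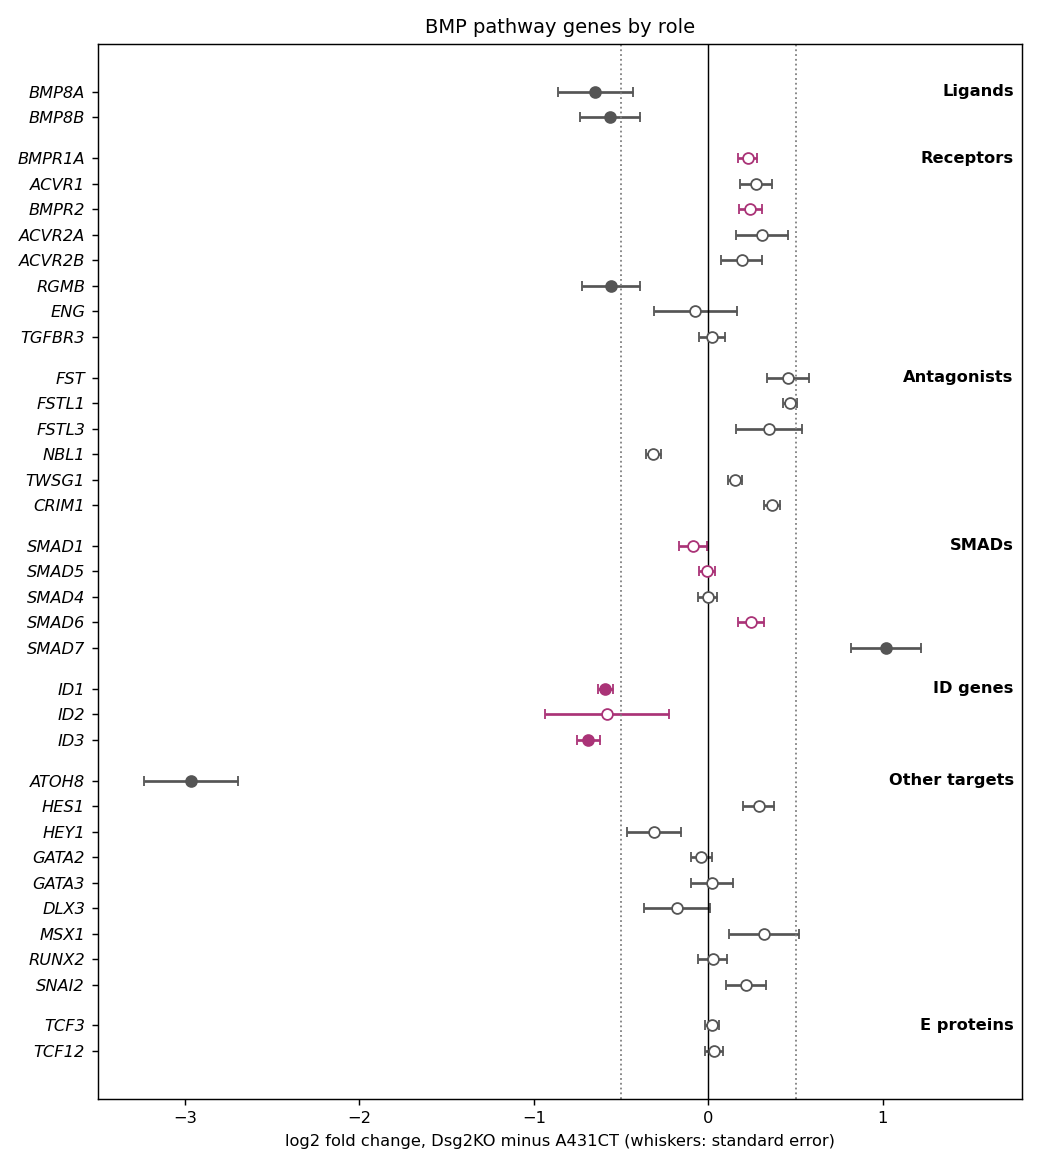
Log2 fold changes (horizontal axis, Dsg2KO minus A431CT, with SEs) of tested BMP pathway genes, grouped by role. Purple marks genes of the list of 10, filled circles passed both thresholds, and dotted lines mark the minimum of 0.5. The receptors lie to the right of 0 except RGMB and ENG, SMAD1, SMAD5 and SMAD4 sit near 0, SMAD7 lies at 1.02, and ID1, ID3 and ATOH8 lie to the left.

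Of the ID genes, the abundant ones were lower in Dsg2KO cells. ID1, on chromosome 20 (31605283 to 31606515), was at 371, 345 and 384 CPM in A431CT cells and at 248, 249 and 233 CPM in Dsg2KO cells. The means were 367 ± 19.8 CPM (SD, n = 3) and 243 ± 9.05 CPM, with a log2 fold change of -0.59 (SE 0.04). ID3, on chromosome 1 (23557926 to 23559501), was at 136, 115 and 139 CPM in A431CT cells and at 82.7, 83.5 and 75.7 CPM in Dsg2KO cells. Its means were 130 ± 13.1 CPM (SD, n = 3) and 80.6 ± 4.26 CPM, with a log2 fold change of -0.69 (SE 0.07). Dsg2KO cells thus held 66.4% of the A431CT level of ID1 and 62.0% of that of ID3, and for neither gene did the libraries of the conditions overlap.

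The proportion of ID1 to ID3 moved little, with overlapping libraries. Per length of exon ID1 made up 77.2% ± 0.830 (SD, n = 3) of the summed ID1 to ID4 level in A431CT cells and 78.4% ± 0.305 in Dsg2KO cells, and ID3 made up 22.55% ± 0.919 and 21.4% ± 0.264. ID2, on chromosome 2 (8678845 to 8684461), was expressed at only 1.49, 2.73 and 1.86 CPM in A431CT cells and at 2.01, 1.10 and 0.989 CPM in Dsg2KO cells. These levels rest on between 16 and 37 counts per library. Its log2 fold change was -0.58 (SE 0.36), with overlapping libraries, and a difference was not detectable at this depth. The value rested on single libraries, since it was -0.30 without A431CT replicate 2 and -0.95 without Dsg2KO replicate 1. ID4, on chromosome 6 (19837370 to 19842197), had at most 2 counts in any library, which is under the floor of 3 counts, so that no fold change is given.

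**Figure D3:**
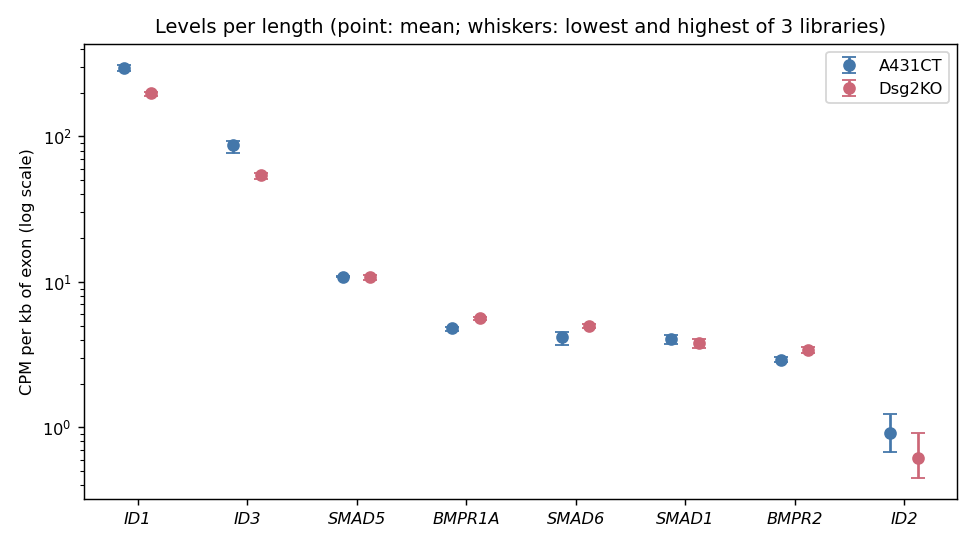
Level per length of exon (vertical log axis, CPM per kb) of the 8 tested genes of the list in A431CT (blue) and Dsg2KO cells (red), as the mean with the lowest and highest of 3 libraries. ID1 and ID3 stand above the SMADs and receptors in both conditions, at 297 and 87.0 CPM per kb in A431CT cells against 197 and 53.9 in Dsg2KO cells, and ID2 is lowest.

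Per length of exon, the order of the genes in A431CT cells was ID1, ID3, SMAD5, BMPR1A, SMAD6, SMAD1, BMPR2, ID2, ID4 and BMP4. The levels were 297 ± 16.02 CPM per kb (SD, n = 3) for ID1, 87.0 ± 8.79 for ID3, 10.9 ± 0.118 for SMAD5 and 4.79 ± 0.158 for BMPR1A. SMAD6 and SMAD1, at 4.18 ± 0.443 and 4.06 ± 0.299 CPM per kb, overlapped. BMPR2 followed at 2.90 ± 0.139 and ID2 at 0.916 ± 0.286. The order was the same in Dsg2KO cells, where SMAD6 was separate from SMAD1 at 4.94 ± 0.147 against 3.82 ± 0.283 CPM per kb, and SMAD1 overlapped BMPR2 at 3.43 ± 0.171. The lengths are the union of all annotated exons, so that genes with long untranslated exons not used in these cells are set too low.

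Among BMP target genes outside the ID family, the largest difference was in ATOH8, a bHLH transcription factor induced by BMPs in several cell types. ATOH8 was at 6.61, 5.97 and 6.43 CPM in A431CT cells and at 1.14, 0.673 and 0.618 CPM in Dsg2KO cells, which are 84, 81 and 83 counts against 17, 11 and 10 counts. No Dsg2KO library came near the A431CT libraries. ATOH8 fell to 12.8% of the A431CT level, with a log2 fold change of -2.97 (SE 0.27, adjusted p = 1.5e-06, edgeR's quasi-likelihood test), and without 1 library it stayed between -3.28 and -2.81. ATOH8 was not on the list of 10. Over the 50 nearest tested genes on chromosome 2, the median was 0.02 on the log2 scale. Of these neighbours, 1 had a lower value than ATOH8.

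Of the 22 targets other than the ID genes, 11 were tested. ATOH8 and SMAD7 passed both thresholds, in opposite directions, beside 6.03% of all tested genes. The tested targets include SMAD6, which is also on the list described first, and SMAD7, which is also a TGF-β target. HES1, which is also a Notch target, was higher with a log2 fold change of 0.29 (SE 0.09, adjusted p = 0.0263, edgeR), under the fold change minimum. HEY1 had a log2 fold change of -0.31, MSX1 of 0.32 and SNAI2 of 0.21, and none of these passed the test. GATA2, GATA3, RUNX2 and DLX3 had log2 fold changes between -0.18 and 0.03. The median of the 11 genes was 0.03.

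**Figure D4:**
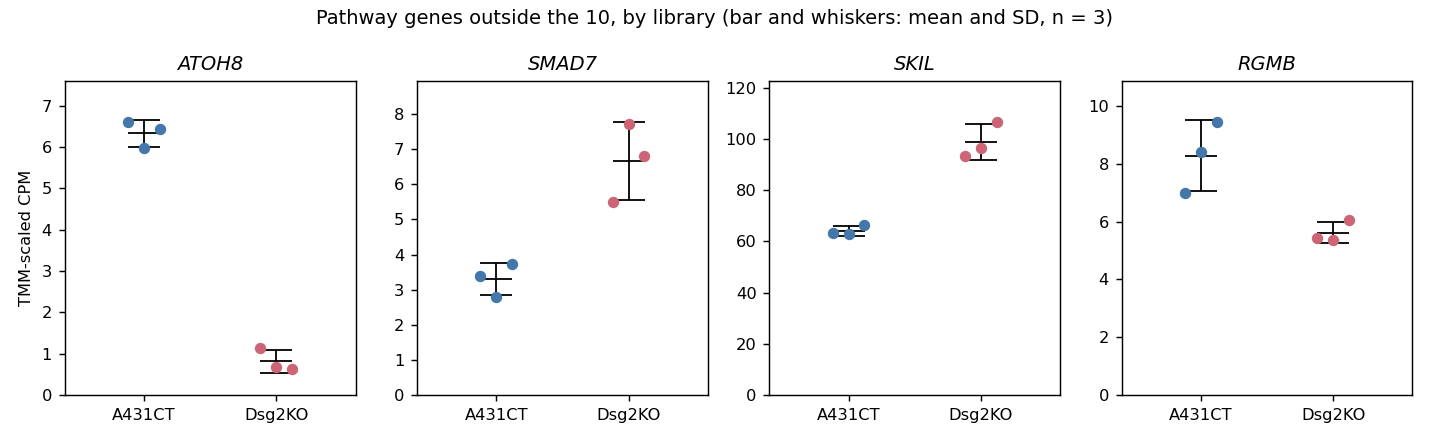
TMM-scaled CPM (vertical axes, each from 0) of ATOH8, SMAD7, SKIL and RGMB in the 3 A431CT libraries (blue) and the 3 Dsg2KO libraries (red), with the mean and SD. The conditions do not overlap for any of these genes, and ATOH8 drops from 6.34 to 0.811 CPM.

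Of 18 listed extracellular antagonists of BMPs, 6 were tested and 0 passed both thresholds, beside 6.03% of all tested genes. By the adjusted p-value alone 4 were higher and 1 was lower, beside 14.3% and 15.3% of all tested genes. FSTL1, a secreted follistatin-like protein, had a mean of 173 ± 6.39 CPM (SD, n = 3) in A431CT cells and 239 ± 3.74 CPM in Dsg2KO cells, with a log2 fold change of 0.47 (SE 0.04, adjusted p = 9.45e-07, edgeR). FST, which binds activins and some BMPs, had a log2 fold change of 0.46 (SE 0.12, adjusted p = 0.0107, edgeR), although its libraries overlapped. CRIM1, a membrane protein that binds BMPs, had a log2 fold change of 0.36 and TWSG1, which binds BMPs and chordin, of 0.15, both with an adjusted p-value under 0.05. NBL1, a secreted antagonist of the DAN family, was the lower one, with a log2 fold change of -0.32 (SE 0.04, adjusted p = 6.65e-05, edgeR). It lies on chromosome 1, where its 50 nearest tested genes had a median of -0.30. NOG, CHRD and CER1 had no count in any library.

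Inside the cell, 15 regulators of BMP-activated SMADs were listed and 13 tested. SKIL, a repressor of SMAD complexes and itself a TGF-β target, was at 63.2, 62.9 and 66.3 CPM in A431CT cells and at 93.5, 96.3 and 107 CPM in Dsg2KO cells. SKIL rose with a log2 fold change of 0.63 (SE 0.06, adjusted p = 1.37e-06, edgeR) in 3 of 3 libraries. It was the 1 regulator past both thresholds, which 6.03% of all tested genes passed. CTDSPL, a phosphatase of the family that acts on SMADs, and TRIM33, a ubiquitin ligase that acts on SMAD4, had log2 fold changes of 0.34 and 0.21, both with an adjusted p-value under 0.05. SKI and LEMD3, which both restrain SMAD signaling, had log2 fold changes of -0.22 and -0.28, also with an adjusted p-value under 0.05. For SKI the neighbouring genes on chromosome 1 were lower still, with a median of -0.37, and for TRIM33 the neighbours were higher by a median of 0.21. SMURF1 and SMURF2, ubiquitin ligases for SMADs and receptors, did not pass the test.

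Over all roles, 82 pathway genes outside the 10 were listed and 41 were tested. SMAD7 and SKIL passed both thresholds as higher, and ATOH8, RGMB, BMP8A and BMP8B as lower. SMAD7 and SKIL are also TGF-β targets. The 41 genes had a median of 0.07 on the log2 scale, with 27 above 0 and 14 below. All 12857 tested genes had a median of -0.0048, with 6312 above 0 and 6545 below, and the difference was not tested. The 6 of 41 past both thresholds stand beside 6.03% of all tested genes. With the median of the neighbours removed 4 of the 41 passed, and with DESeq2 4 of 72 listed genes passed. By the adjusted p-value alone 10 were higher and 7 lower, beside 14.3% and 15.3% of all tested genes.

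For the partners of ID proteins no difference passed the test. TCF3, which encodes the E proteins E12 and E47, was at 156 ± 1.10 CPM (SD, n = 3) in A431CT cells and 158 ± 2.64 CPM in Dsg2KO cells, with a log2 fold change of 0.02 (SE 0.04, adjusted p = 0.733, edgeR). TCF12 had a log2 fold change of 0.03 (SE 0.05, adjusted p = 0.682, edgeR), and TCF4 was under the filter. Of 4 CDK inhibitors that E proteins activate in other cells, CDKN1A was the 1 tested, with a log2 fold change of -0.47 (SE 0.21, adjusted p = 0.109, edgeR), and CDKN2A and CDKN2B had no count in any library.

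For comparison, a list of 27 TGF-β target genes held 22 tested genes, of which 4 were higher past both thresholds and 0 were lower, beside 2.99% and 3.03% of all tested genes. By the adjusted p-value alone 9 were higher and 3 lower, beside 14.3% and 15.3% of all tested genes. The choice of the 10 genes refers to a rise of such targets, so these counts are no independent evidence of their direction. Among the 4 past both thresholds were LTBP2, SMAD7 and SKIL, and SMAD7 and SKIL are also on the BMP lists. LTBP2, a protein of the extracellular matrix that is related to the binding proteins of latent TGF-β, rose from 9.73 ± 0.234 CPM (SD, n = 3) to 20.5 ± 1.154 CPM, with a log2 fold change of 1.08 (SE 0.10). THBS1, also a TGF-β target, had a log2 fold change of -0.47 (SE 0.09, adjusted p = 0.00111, edgeR), just under the fold change minimum. The median of the 22 genes was 0.22, beside 0.03 for the 11 tested BMP targets outside the ID family and -0.0048 for all tested genes. The difference between the lists was not tested.

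Most neighbouring genes of ID3, and fewer of those of ID1, had log2 fold changes below 0. The 50 tested genes nearest to ID3, between 20.5 and 25.8 Mb of chromosome 1, had a median of -0.30 on the log2 scale, and 47 of them were below 0. One neighbour had a lower value than ID3. The 50 genes nearest to ID1, between 18.5 and 34.5 Mb of chromosome 20, had a median of -0.11, with 34 below 0 and 16 above, and none had a lower value than ID1. The 25 genes on the side of higher coordinates, all within 2.83 Mb of ID1, had a median of -0.15, and the 25 on the other side, which reach 13.1 Mb away, had a median of -0.08. With the median of all 50 neighbours removed, the log2 fold change of ID1 was -0.48 and that of ID3 -0.39, so that neither gene reached the fold change minimum of 0.5. The part of the regional shift in the levels of ID1 and ID3 was not tested beyond this subtraction. For the other tested genes of the list, the medians of the neighbours lay between -0.01 and 0.06.

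**Figure D5:**
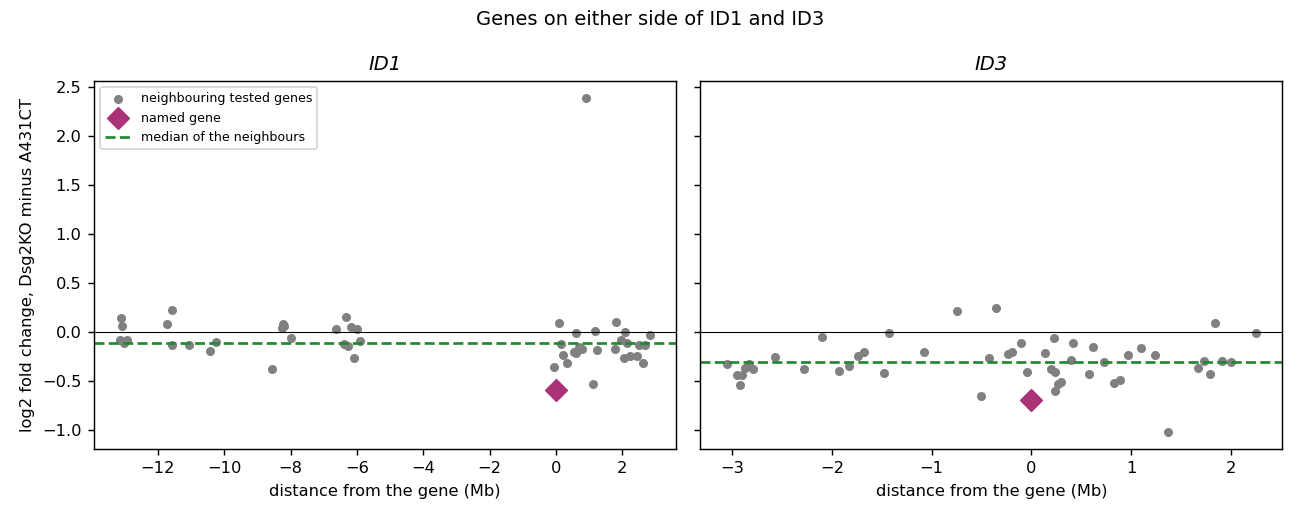
Log2 fold change (vertical axis) of the 50 tested genes nearest to ID1 (left) and ID3 (right) against their distance from the gene in Mb (horizontal axis), with the named gene as a diamond and the median of the neighbours as a dashed line. The median is -0.11 around ID1 and -0.30 around ID3, and both genes lie below it, at -0.59 and -0.69.

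The libraries in which ID1 and ID3 were high or low were also compared with every other tested gene. Over the 6 libraries, the log2 CPM of PNRC2, HNRNPM, PRPF6, KIF2C and SP6 had the highest Pearson correlations with the mean of the scaled ID1 and ID3 values, between 0.9959 and 0.9985. All 5 were lower in Dsg2KO cells, with log2 fold changes between -0.17 for HNRNPM and -0.65 for SP6. PNRC2 lies 0.401 Mb from ID3 and is among its neighbours. Such values are common here, since the points share the difference between the conditions, and 510 of the other tested genes (3.97%) reached 0.95. Among the BMP genes the correlation was 0.975 for ATOH8, 0.527 for ID2, 0.310 for SMAD1 and -0.005 for SMAD5, and it was negative for SMAD6, BMPR1A and BMPR2 (-0.654, -0.948 and -0.968).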

How the data were processed

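Per the study's methods, trimming, alignment to GRCh38 and counting of the paired-end reads were done by the authors with CLC Genomics Workbench version 23. They deposited the counts per gene symbol as whole numbers without normalization. The annotation and strand setting of the counting are not given in the sources used here, so reads from overlapping genes cannot be told apart. Genes on the opposite strand overlap ID2, ID4, SMAD1, SMAD5, BMPR1A, BMPR2 and BMP4. Genes on the same strand overlap SMAD5, SMAD6, BMPR1A and BMPR2. ID1 and ID3 have no overlapping gene. The 10 genes and the lists were chosen with earlier results of these data known.

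Counts were tested with edgeR 4.0.16 in R 4.3.3, with TMM factors, filterByExpr (minimum count 10), a quasi-likelihood fit on condition alone, and p-values adjusted by Benjamini-Hochberg over 12857 genes. The code was tested on simulated data. The limits on adjusted p (0.05) and log2 fold change (0.5 in either direction) were those of the study's methods, whose built-in test was not used here. Groups at or under 3 counts per library were treated as at a floor. Replicates differed by more than counting error (chi-square per degree of freedom between 2.66 and 4.20). Exon lengths and positions came from GENCODE version 44, which placed 12245 tested genes by symbol, and promoters from RefSeq. The CLC annotation may differ.

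The genes named were the 10, DSG2, every pathway gene past both thresholds, a set of receptors, SMADs and E proteins, TGF-β targets past both thresholds (up to 8, of which 1 is not reported here), and the 5 genes most like ID1 and ID3. Other members of the lists, such as the antagonists, HES1, THBS1 and CCN2, were named after their values were seen. Alternatives were RLE factors, library totals, no filter, at least 10 counts in every library, DESeq2 1.42.0, a replicate block, each library left out, no fold change minimum or a minimum of 1, and removal of the median of 50 neighbouring genes.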

Additional observations from a re-analysis of the deposited data

How the results depend on the processing

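ID1 and ID3 passed both thresholds under every alternative fit and with each library left out, and did not with the median of their neighbours removed (-0.48 and -0.39), where 0 of the 8 tested genes of the list passed. Without a fold change minimum 3802 genes passed in all, 5 of the 8, 17 of the 41 other pathway genes and 12 of the 22 TGF-β targets. With a minimum of 1, 250 genes passed, 0 of the 8, 2 of the 41 and 2 of the 22. These follow from the minimum itself. With 1 library left out, between 686 and 795 genes passed, 2 of the list each time, between 4 and 7 other pathway genes, and between 4 and 7 TGF-β targets, the 7 without Dsg2KO replicate 3. The log2 fold change of SMAD5 changed sign with library totals only (0.0155), without the low-count filter (0.0020), without A431CT replicate 2 (0.0020) and without Dsg2KO replicate 1 (0.0273), with a range of -0.0326 to 0.0273 with 1 library left out, and the cause was not tested. The other 7 tested genes kept their direction under all 13 alternatives. The labels do not say whether libraries with the same replicate number were prepared together. Correlations of residuals were between -0.0027 and 0.0539 for same-numbered libraries and between -0.0415 and 0.0281 for the others, which cannot settle this. With a replicate block 769 genes passed, with 2, 6 and 4 in the lists. Depth limits ID2, with at most 37 counts, and ID4 and BMP4, which could not be tested.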

Other observations

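Some pathway genes were counted too rarely to be tested, and their counts are given without a comparison. BMP2, a BMP ligand, had 12, 5 and 18 counts in the A431CT libraries, against 6, 4 and 2 in the Dsg2KO libraries. ACVRL1, a type I receptor known from endothelial cells, had 2, 3 and 3 counts in the A431CT libraries, against 8, 14 and 5 in the Dsg2KO libraries. TBX2, a T-box factor induced by BMPs in other tissues, had 2, 0 and 0 counts in the A431CT libraries, against 6, 9 and 5 in the Dsg2KO libraries. These genes were picked after their values were seen.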
